A study of Mus musculus with 6 samples.

Results

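The genes described here are transcribed in migrating neuroblasts and immature neurons. They are 37 genes named by symbol from that cell state, all 37 were found among the 53379 gene identifiers of the count tables, and all 37 were tested. The RNA came from cerebral cortex. All mice were C57BL/6 and 2 months old, and the labels give 3 libraries as Gtf2ird1-/- (knockout libraries 5, 6 and 7) and 3 as wild type (libraries 1, 3 and 4). Gtf2ird1 codes for a transcription factor of the general factor TFII-I family. The series title speaks of isolated neurons positive for Gad2, a gene of GABA synthesis. The sources used here do not give the way of isolation, the mutated part of Gtf2ird1 or whether each library is a separate animal. P-values therefore measure only the spread between these libraries, which may be technical.

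Neuroblasts are young neurons that still migrate. In the adult rodent brain they arise in the subventricular zone and the dentate gyrus, and those of the subventricular zone travel to the olfactory bulb, where most become GABAergic interneurons. Their migration rests on a microtubule cytoskeleton rich in doublecortin, on the adhesion molecule NCAM with long chains of polysialic acid, and on guidance receptors, while SoxC and other transcription factors keep the immature programme. Many of these genes are also transcribed in mature neurons or glia.

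Total gene counts lay between 13627501 and 30544144 per library, and levels are CPM, the counts scaled to a common library size, after TMM scaling unless stated otherwise. Reads assigned to no feature made up 40.0% to 58.2% of the reads counted to genes, to no feature or as ambiguous. Such reads need not lie outside genes. Ribosomal RNA took 0.0473% to 17.5% of gene counts, the highest share being in wild type library 3. Gtf2ird1 itself had 49.7, 40.6 and 48.8 CPM in knockout libraries 5, 6 and 7 and 23.3, 31.5 and 52.7 CPM in wild type libraries 1, 3 and 4 (exact permutation test, two-sided p = 0.4, where 0.1 is the smallest that 3 against 3 can give), and since the mutated part is not known its level does not check the labels. Ddx3y, a gene of the Y chromosome, had 150 and 197 CPM in knockout libraries 5 and 6 and 0.0312 CPM in knockout library 7, against 0 counts in all 3 wild type libraries. The libraries high in Ddx3y, 5 and 6, were both labelled knockout, so sex and genotype cannot be fully told apart. The part of sex in the results was not tested. Markers did not bear out the cell type of the title: per kilobase of annotated exon, mean levels over the 6 libraries were 12.1 for Gad2 and 1492 for Csf1r, a microglial receptor, in CPM per kilobase (RPKM).

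The promoters of a few members are shown here because their levels, given further on, differ in spread: Dcx, Map1b and Sox11 varied much between libraries and Sox4 varied little. Each line is a window of 300 bases, read 5′ to 3′ on the gene's strand. It runs from 250 before to 50 after a gene start annotated in RefSeq on GRCm38.p6. RefSeq starts can differ from the gene coordinates used further on. The Sox11 window lies wholly outside those of Sox11, and the Map1b window wholly outside those of Map1b (99421446 to 99516540). Where a gene had several windows, the one with the most TAATTA matches was taken, so the choice favoured that motif. Capitals mark matches to the motifs searched: TAATTA in Dcx and, in Map1b, TAATCC, which is GGATTA on the opposite strand.
Dcx (chrX:143933170-143933469, minus strand): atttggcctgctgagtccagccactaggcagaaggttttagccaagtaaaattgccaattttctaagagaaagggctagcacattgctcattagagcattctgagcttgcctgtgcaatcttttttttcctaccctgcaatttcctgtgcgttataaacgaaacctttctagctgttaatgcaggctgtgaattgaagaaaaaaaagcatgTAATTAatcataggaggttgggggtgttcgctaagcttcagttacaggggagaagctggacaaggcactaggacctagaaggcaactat
Map1b (chr13:99516553-99516852, minus strand): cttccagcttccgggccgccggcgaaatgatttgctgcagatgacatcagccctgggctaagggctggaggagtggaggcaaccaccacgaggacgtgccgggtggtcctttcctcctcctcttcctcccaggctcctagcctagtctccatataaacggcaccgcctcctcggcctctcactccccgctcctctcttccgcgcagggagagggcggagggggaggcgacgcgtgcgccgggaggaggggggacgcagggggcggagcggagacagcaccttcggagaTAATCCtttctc
Sox11 (chr12:27342669-27342968, minus strand): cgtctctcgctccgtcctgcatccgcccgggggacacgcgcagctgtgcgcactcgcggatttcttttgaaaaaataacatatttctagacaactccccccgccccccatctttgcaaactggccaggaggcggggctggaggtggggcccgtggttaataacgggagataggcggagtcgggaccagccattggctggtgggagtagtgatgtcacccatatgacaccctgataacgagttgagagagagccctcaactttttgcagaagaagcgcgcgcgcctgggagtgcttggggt
Sox4 (chr13:28953650-28953949, minus strand): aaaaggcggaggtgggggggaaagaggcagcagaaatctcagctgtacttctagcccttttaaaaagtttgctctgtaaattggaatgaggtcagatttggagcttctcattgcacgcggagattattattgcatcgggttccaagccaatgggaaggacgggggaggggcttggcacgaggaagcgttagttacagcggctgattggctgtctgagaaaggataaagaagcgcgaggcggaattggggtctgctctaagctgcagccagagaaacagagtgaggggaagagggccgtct

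Of the 37 members, 24 had such windows, 38 in all. The motif GGATTA, reported for GTF2IRD1, was searched on both strands with TAATTA, a motif of homeodomain factors such as the DLX proteins, and ACAATG, a motif of SOX factors. GGATTA lay in 2 of the 38 windows, of Dpysl5 and Map1b, and in 7.06% of all 32851 windows. TAATTA lay in 5 of the 38 windows, of Dcx, Elavl4 and Nfix, and in 5.29% of all windows. ACAATG lay in 6, of Dclk1, Dpysl5, Elavl4, Nfix, Tiam2 and Tubb3, and in 12.6% of all windows. A match here is a stretch of letters and not a shown binding site.

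None of the 37 members passed an adjusted p of 0.05 between libraries labelled knockout and wild type libraries in edgeR's quasi-likelihood test, where 1 of 17221 tested genes (0.00581%) did, the pseudogene Rpsa-ps10 with a log2 fold change of 5.41. DESeq2 and limma-voom also called 0 members. At an unadjusted p under 0.05 DESeq2 gave 4 members, beside 9.17% of all tested genes, and limma-voom gave 2, beside 8.62%, counts near those backgrounds. At an unadjusted p under 0.05 edgeR gave 2 members as higher, Tuba1a and Dclk1, and 0 as lower, beside 4.48% of all tested genes as higher and 2.77% as lower. The log2 fold change was positive for 31 of the 37 members, with a median of 0.38, and for 46.3% of all tested genes, with a median of -0.03. This lean was not particular to the members, since markers of other cells apart from microglia shared it. Positive values were found for 16 of 16 astrocyte (median 1.69), 16 of 16 oligodendrocyte (1.35) and 14 of 15 mature neuron markers (0.49). Of the 18 microglial markers 0 were positive (median -0.24). Without wild type library 4 the median of the members became 1.22, and without wild type library 1 or 3 it became 0.16 and 0.13.

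Wild type libraries differed among themselves by more than the groups did on average. Relative to each gene's own mean over the 6 libraries, the median member stood at 145%, 111% and 80.8% in knockout libraries 5, 6 and 7. In the wild type libraries it stood at 53.1% in replicate 1, 46.2% in replicate 3 and 149% in replicate 4. The summed level of the members was 7836, 5941 and 4344 CPM in knockout libraries 5, 6 and 7 and 2886, 2750 and 7505 CPM in wild type libraries 1, 3 and 4. Wild type library 4 thus lay beside knockout library 5, and wild type libraries 1 and 3 lay below every library labelled knockout. In bulk libraries, fewer cells of a type and less RNA of each cell cannot be told apart.

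**Figure D1:**
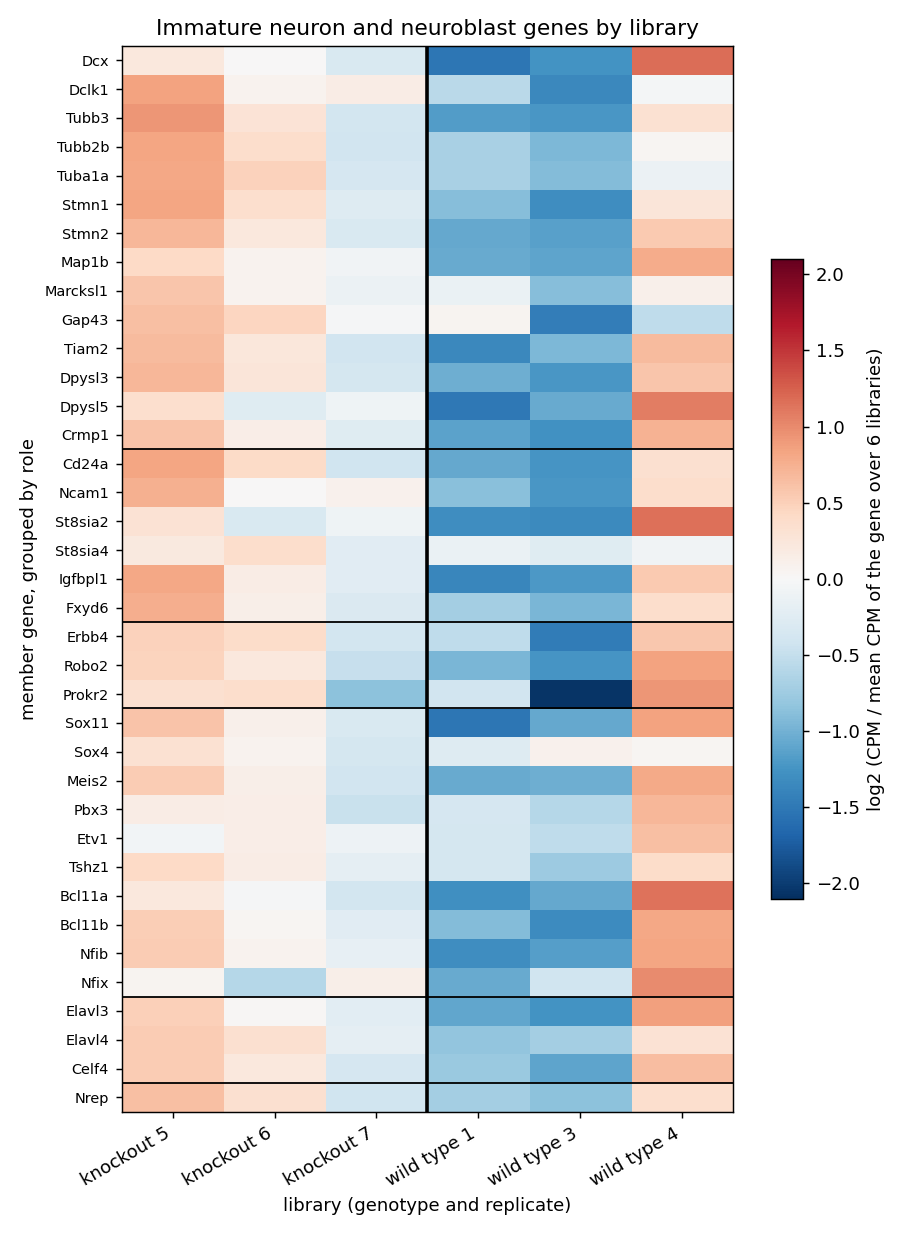
Level of each of the 37 members in each library, as log2 of CPM over the gene's mean CPM of the 6 libraries, with rows grouped by role (black lines) and libraries labelled knockout to the left of the thick line. Wild type libraries 1 and 3 are blue for most members, and wild type library 4 and knockout library 5 are red.

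The members varied together from library to library. In 31 of 37 members, or 83.8%, knockout libraries 5, 6 and 7 and wild type library 4 all lay above wild type libraries 1 and 3, an order chosen after the values were seen, which 14% of all tested genes also had. The exceptions were Gap43, St8sia4, Prokr2, Sox4, Pbx3 and Nfix. Wild type library 4 had at least 2 times the level of both other wild type libraries in 28 members (75.7%, against 7.47% of all tested genes). The highest library was wild type library 4 for 19 members, knockout library 5 for 17 and knockout library 6 for 1. The lowest was wild type library 3 for 26, wild type library 1 for 10 and knockout library 7 for 1. Among the libraries labelled knockout, replicate 5 was the highest for 33 members and replicate 7 the lowest for 32. The ratio of the highest to the lowest library had a median of 4.04 over the members and of 1.89 over all tested genes. Every marker list of other cells except microglia had a larger median than the members. These medians ran from 4.14 for ependymal cells and 4.60 for mature neurons to 23.6 for astrocytes, and microglial markers had 1.78. Over the members the ratio ran from 1.54 for St8sia4 to 7.96 for Prokr2.

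Doublecortin is the microtubule-binding protein by which migrating neuroblasts are usually recognised. Its gene Dcx (ENSMUSG00000031285.14, chromosome X, 143855842 to 143933311 in GRCm38, minus strand) had 250.2, 215 and 172 CPM in knockout libraries 5, 6 and 7 and 74.6, 89.2 and 482 CPM in wild type libraries 1, 3 and 4. All 3 libraries labelled knockout lay inside the range of the wild type libraries. It averaged 212 ± 39.3 CPM in libraries labelled knockout and 215 ± 231 CPM in wild type (SD, n = 3 each). Its log2 fold change, given here and further on with its standard error, was -0.02 ± 0.67 (adjusted p = 0.993, edgeR), with a 95% interval from -1.59 to 1.55. That value was 1.38 without wild type library 4 (adjusted p = 0.143, edgeR), -0.43 without wild type library 1 and -0.38 without wild type library 3 (adjusted p = 0.737 and 0.999996, edgeR), and 0.50 with limma-voom. Over all alternatives the adjusted p ran from 0.143 to 0.999996.

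Dclk1, the relative of doublecortin that also carries a kinase domain, was the single member whose groups did not overlap. It had 251, 148 and 157 CPM in knockout libraries 5, 6 and 7 and 95.1, 55.2 and 137 CPM in wild type libraries 1, 3 and 4. The log2 fold change of Dclk1 was 0.95 ± 0.35 (adjusted p = 0.637, edgeR). Of all tested genes, 6.34% had every library labelled knockout above every wild type library, and 1 of 37 members did. The opposite, every library labelled knockout below, held for 6.68% of tested genes and 0 members. Dclk1 overlaps genes annotated on the other strand, and the sources used here do not give the strand setting of the counting.

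The 6 smallest p-values among the members belonged to cytoskeletal genes, though none passed after adjustment. Tuba1a, an alpha-tubulin of young neurons (chromosome 15, 98949837 to 98953703), had 978, 781 and 437 CPM in knockout libraries 5, 6 and 7 and 348, 297 and 511 CPM in wild type libraries 1, 3 and 4. Its log2 fold change was 0.93 ± 0.33 (adjusted p = 0.637, edgeR). The beta-tubulin Tubb2b had 481, 348 and 205 CPM in knockout libraries 5, 6 and 7 and 169, 140.3 and 277 CPM in wild type libraries 1, 3 and 4. In both genes wild type library 4 lay above knockout library 7 and below the other libraries labelled knockout. Tubb3, the beta-tubulin used as a marker of neurons, had 312, 202 and 126 CPM in knockout libraries 5, 6 and 7 and 72.8, 71.0 and 205 CPM in wild type libraries 1, 3 and 4, and its groups overlapped through the same wild type library. Tubulin genes have near-identical relatives and Tubb3 overlaps Gm20388 on the same strand, so these levels are uncertain where reads were split or set aside as ambiguous.

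Stathmins bind tubulin dimers and promote microtubule turnover. Stmn1 had 189, 136 and 88.2 CPM in knockout libraries 5, 6 and 7 and 57.3, 43.3 and 127 CPM in wild type libraries 1, 3 and 4. Stmn2 had 83.9, 60.3 and 41.4 CPM in knockout libraries 5, 6 and 7 and 24.3, 23.5 and 75.4 CPM in wild type libraries 1, 3 and 4. Both showed the common order of libraries, and their log2 fold changes were 0.86 ± 0.43 for Stmn1 and 0.59 ± 0.49 for Stmn2 (adjusted p = 0.637 and 0.718, edgeR). Gap43, a membrane protein of growth cones, had 7.62, 6.77 and 4.84 CPM in knockout libraries 5, 6 and 7 and 5.15, 1.81 and 3.42 CPM in wild type libraries 1, 3 and 4. Gap43 and Sox4 were the members in which wild type library 4 did not exceed both other wild type libraries.

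**Figure D2:**
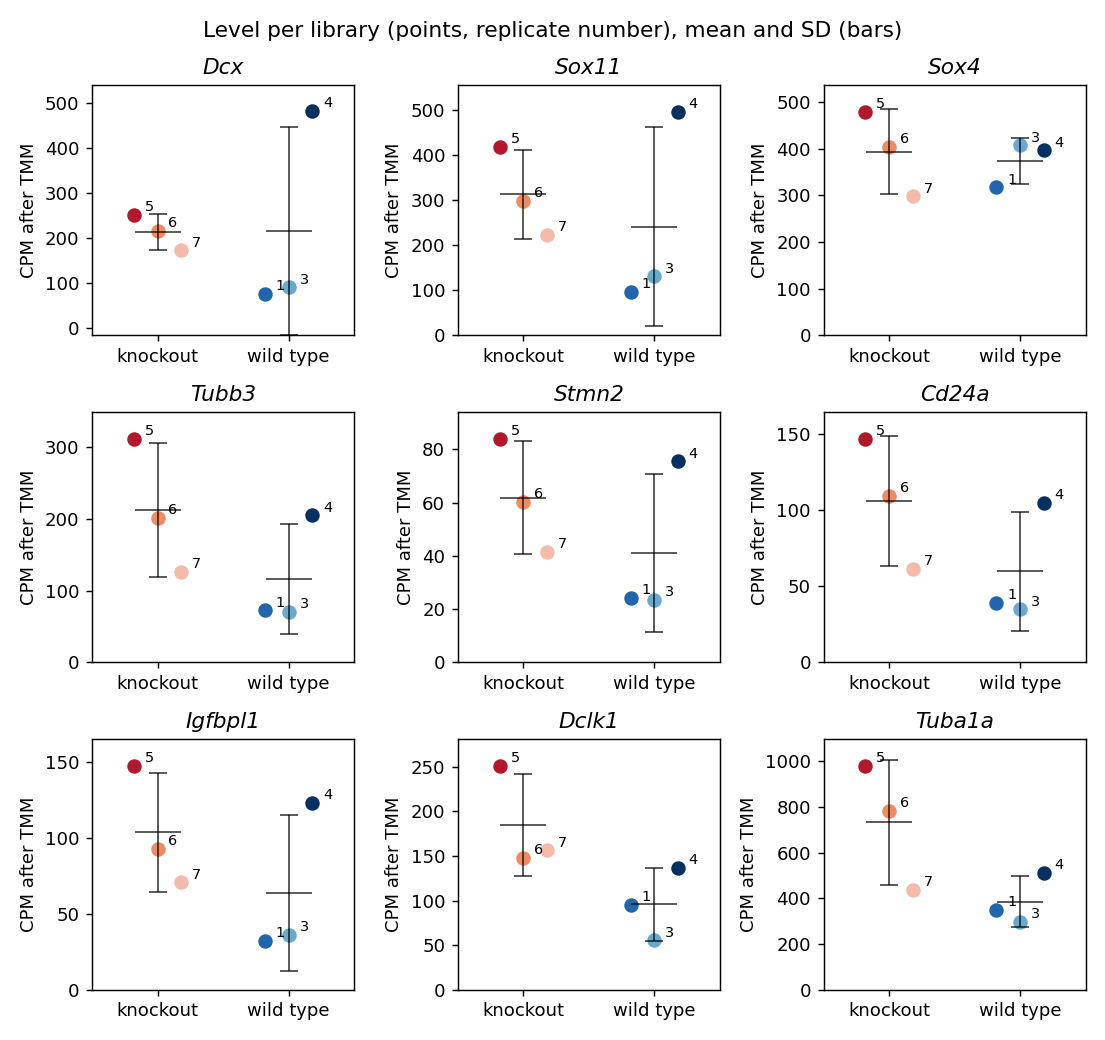
CPM after TMM scaling of 9 members in each library (points with replicate numbers), with the mean and SD of each group (bars, n = 3), knockout left and wild type right. Wild type library 4 lies far above wild type libraries 1 and 3 for Dcx, Sox11, Tubb3, Stmn2, Cd24a and Igfbpl1, while Sox4 varies little.

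The other cytoskeletal members had the same order of libraries. Map1b, a microtubule-associated protein of growing axons, had 434, 341 and 309 CPM in knockout libraries 5, 6 and 7 and 156, 149.9 and 555 CPM in wild type libraries 1, 3 and 4. The collapsin response mediator genes Dpysl3, Dpysl5 and Crmp1, which link guidance signals to microtubules, had log2 fold changes of 0.57, 0.06 and 0.45. Tiam2, an exchange factor for Rac, and Marcksl1, an actin-binding protein, had 0.49 and 0.46. Dpysl5 had 78.3, 51.4 and 57.5 CPM in the libraries labelled knockout, all under the 129 CPM of wild type library 4. Of the 14 cytoskeletal members, 13 had all libraries other than wild type libraries 1 and 3 above those, Gap43 being the exception, and edgeR called 0 of them.

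Cd24a and Igfbpl1, both listed under cell surface and polysialic acid, had the common order. Cd24a, a small surface glycoprotein abundant on neuroblasts, had 147, 109 and 61.7 CPM in knockout libraries 5, 6 and 7 and 39.4, 35.0 and 105 CPM in wild type libraries 1, 3 and 4 (log2 fold change 0.82 ± 0.48, adjusted p = 0.649 in edgeR). Igfbpl1, a secreted relative of the IGF-binding proteins, had 147, 92.6 and 70.6 CPM in knockout libraries 5, 6 and 7 and 32.3, 36.1 and 123 CPM in wild type libraries 1, 3 and 4. In both genes wild type library 4 lay within the range of the libraries labelled knockout, and the other wild type libraries lay below it.

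The enzymes that add polysialic acid to NCAM differed in how much they varied. St8sia2, the one prominent in developing brain, had 17.9, 11.6 and 13.6 CPM in knockout libraries 5, 6 and 7 and 5.88, 5.71 and 32.2 CPM in wild type libraries 1, 3 and 4. St8sia4 had 81.2, 90.6 and 59.7 CPM in knockout libraries 5, 6 and 7 and 63.6, 59.0 and 66.9 CPM in wild type libraries 1, 3 and 4. The wild type libraries differed 5.64 times between highest and lowest for St8sia2, while St8sia4 had the smallest ratio between highest and lowest of the 6 libraries of any member. Their acceptor Ncam1 had 388, 231 and 245 CPM in knockout libraries 5, 6 and 7 and 126, 98.6 and 297 CPM in wild type libraries 1, 3 and 4. Fxyd6, a regulator of the sodium pump, had 0.57 ± 0.40 as its log2 fold change (adjusted p = 0.683, edgeR). None of the 6 members listed under cell surface and polysialic acid was called by edgeR.

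The receptors that guide migration were Erbb4 for neuregulins, Robo2 for Slit proteins and Prokr2 for prokineticin 2, an attractant of the olfactory bulb. Prokr2 had 33.2, 33.9 and 14.4 CPM in knockout libraries 5, 6 and 7 and 19.7, 6.25 and 49.8 CPM in wild type libraries 1, 3 and 4, with the highest ratio between highest and lowest library of any member. Robo2 had 202, 172 and 105 CPM in knockout libraries 5, 6 and 7 and 75.2, 62.0 and 264 CPM in wild type libraries 1, 3 and 4. Erbb4 had 161, 149 and 87.8 CPM in knockout libraries 5, 6 and 7 and 79.0, 41.5 and 171 CPM in wild type libraries 1, 3 and 4. All 3 were highest in wild type library 4 and lowest in wild type library 3, and their groups overlapped. Prok2, the ligand of Prokr2, had 0 counts in all 6 libraries, where 3 counts correspond to 0.0982 to 0.22 CPM of the total gene counts.

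The SoxC factors Sox11 and Sox4 varied to different extents. Sox11 (chromosome 12, 27334264 to 27342574, minus strand) had 419, 298 and 223 CPM in knockout libraries 5, 6 and 7 and 96.5, 131 and 496 CPM in wild type libraries 1, 3 and 4. Sox4 (chromosome 13, 28948919 to 28953713, minus strand) had 479, 404 and 298 CPM in knockout libraries 5, 6 and 7 and 317, 407 and 397 CPM in wild type libraries 1, 3 and 4. The highest library exceeded the lowest 5.14 times for Sox11 and 1.61 times for Sox4. Sox4 was the single member lowest in knockout library 7, and is a factor of many cell types. Fold changes on the log2 scale were 0.38 ± 0.60 for Sox11 and 0.08 ± 0.21 for Sox4 (adjusted p = 0.851 and 0.916, edgeR), and their difference was not tested.

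Of the other 8 transcription factor genes, 7 were highest in wild type library 4 and Tshz1 in knockout library 5. Bcl11a, a zinc finger factor of developing neurons, had 93.0, 78.7 and 61.2 CPM in knockout libraries 5, 6 and 7 and 32.6, 38.1 and 176 CPM in wild type libraries 1, 3 and 4. Nfix, a nuclear factor I gene, had 102, 64.9 and 107 CPM in knockout libraries 5, 6 and 7 and 47.4, 73.4 and 196 CPM in wild type libraries 1, 3 and 4, and had the lowest log2 fold change of the members, at -0.20 ± 0.49 (adjusted p = 0.906, edgeR). Nfib, the other nuclear factor I gene listed, had 455, 333 and 279 CPM in the libraries labelled knockout, all under the 558 CPM of wild type library 4. Meis2, Pbx3, Etv1, Tshz1 and Bcl11b had log2 fold changes between -0.06 and 0.32. Etv1 lay between 68.5 and 80.6 CPM in knockout libraries 5, 6 and 7 and at 57.1, 50.9 and 113 CPM in wild type libraries 1, 3 and 4. Of the 10 transcription factor genes, 6 had a positive and 4 a negative log2 fold change, with a median of 0.18, and edgeR called 0.

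Among RNA-binding proteins, the neuronal ELAV genes Elavl3 and Elavl4, which stabilise transcripts of young neurons, and Celf4 had log2 fold changes of 0.28, 0.58 and 0.38. Elavl4 had 66.5, 58.2 and 40.5 CPM in knockout libraries 5, 6 and 7 and 25.9, 28 and 56.8 CPM in wild type libraries 1, 3 and 4 (adjusted p = 0.649, edgeR). Nrep, a small protein first known from regenerating nervous tissue, had 209, 170 and 101 CPM in knockout libraries 5, 6 and 7 and 82.3, 74.1 and 171 CPM in wild type libraries 1, 3 and 4. In all 4 genes every library other than wild type libraries 1 and 3 lay above those libraries.

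**Figure D3:**
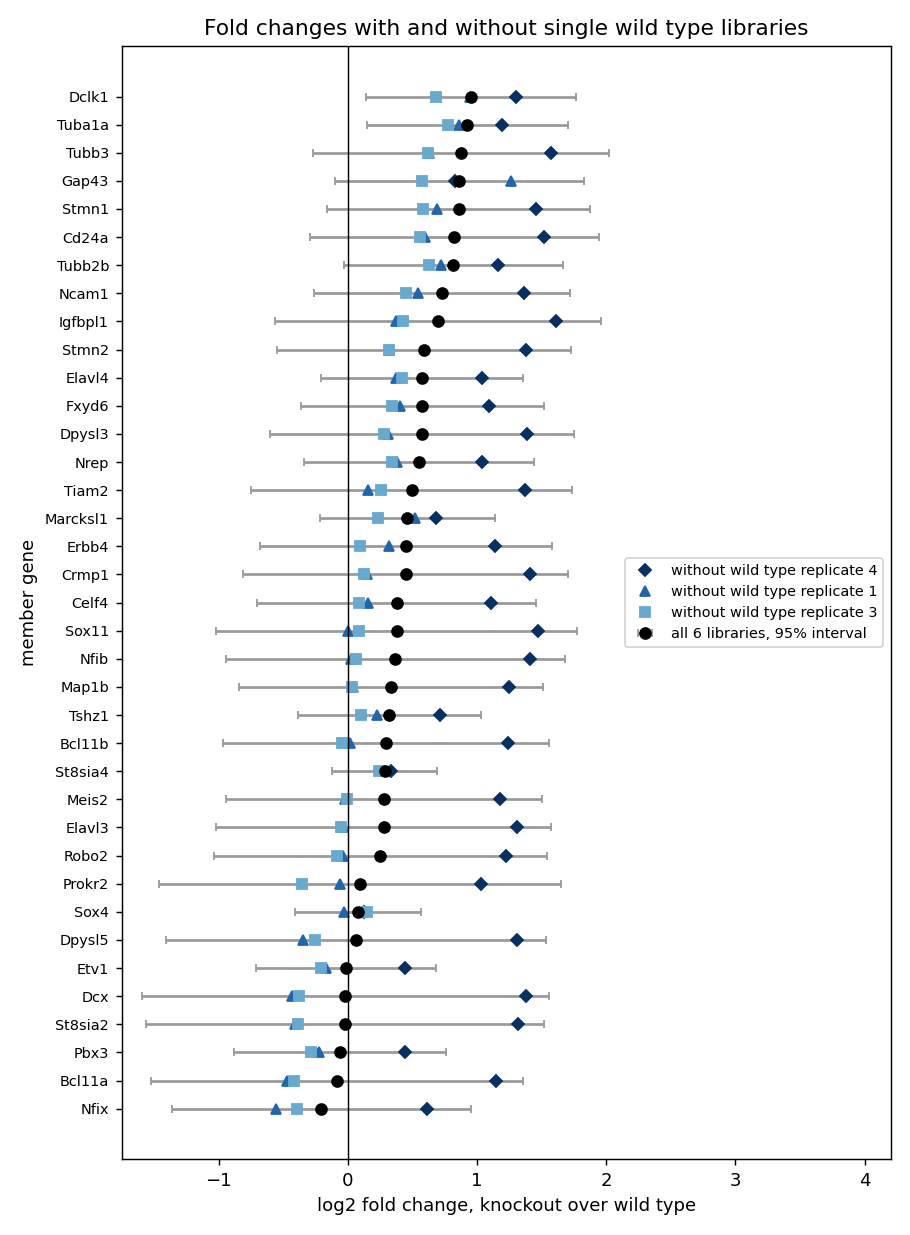
Log2 fold change of libraries labelled knockout over wild type for each member, with 95% intervals over all 6 libraries (black), and without wild type library 4, 1 or 3 (coloured symbols). Of the 37 intervals, those of Dclk1 and Tuba1a lie above 0, and leaving out wild type library 4 gives positive values for all 37 members.

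Of the 6 libraries, wild type library 4 moved the median of the members most when left out. Without it, all 37 members had positive log2 fold changes and 31 had an unadjusted p under 0.05 as higher by edgeR, where 10.7% of the genes tested in that setting did. None passed after adjustment, and the lowest adjusted p was 0.143. Leaving out a library labelled knockout gave medians of 0.20, 0.42 and 0.60, for libraries 5, 6 and 7 in this order, and 0 members called. The share of reads assigned to no feature was 46.8%, 51.2% and 50.1% in knockout libraries 5, 6 and 7 and 40.0%, 57.6% and 58.2% in wild type libraries 1, 3 and 4. Ambiguous reads made up 1.94%, 8.63% and 2.66% in knockout libraries 5, 6 and 7 and 2.32%, 14.45% and 2.69% in wild type libraries 1, 3 and 4. Wild type library 3 also had the fewest gene counts and the lowest TMM factor, 0.811, where the other libraries had 0.994 to 1.11. The part of these measures in the member levels was not tested.

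Per kilobase of exon, the members ranged widely in mean level over the 6 libraries. Tuba1a was highest, at 310 RPKM, followed by Tubb2b at 118, Marcksl1 at 99.1, Tubb3 at 88.2 and Sox4 at 80.1 RPKM. Dcx had 16.9 RPKM and Sox11 33.4 RPKM, while Bcl11b at 2.13 and St8sia2 at 2.69 RPKM were the lowest. On the same scale Rbfox3, a marker of mature neurons, had 0.695 RPKM, Nefl, a neurofilament gene, 1.59 RPKM and Snap25, a synaptic protein, 3.78 RPKM. The 15 listed markers of mature neurons ran from 0.110 RPKM for Nefh to 16.7 RPKM for Map2, which was close to Dcx. Camk2a of that list had 4.64 RPKM, above the lowest members.

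**Figure D4:**
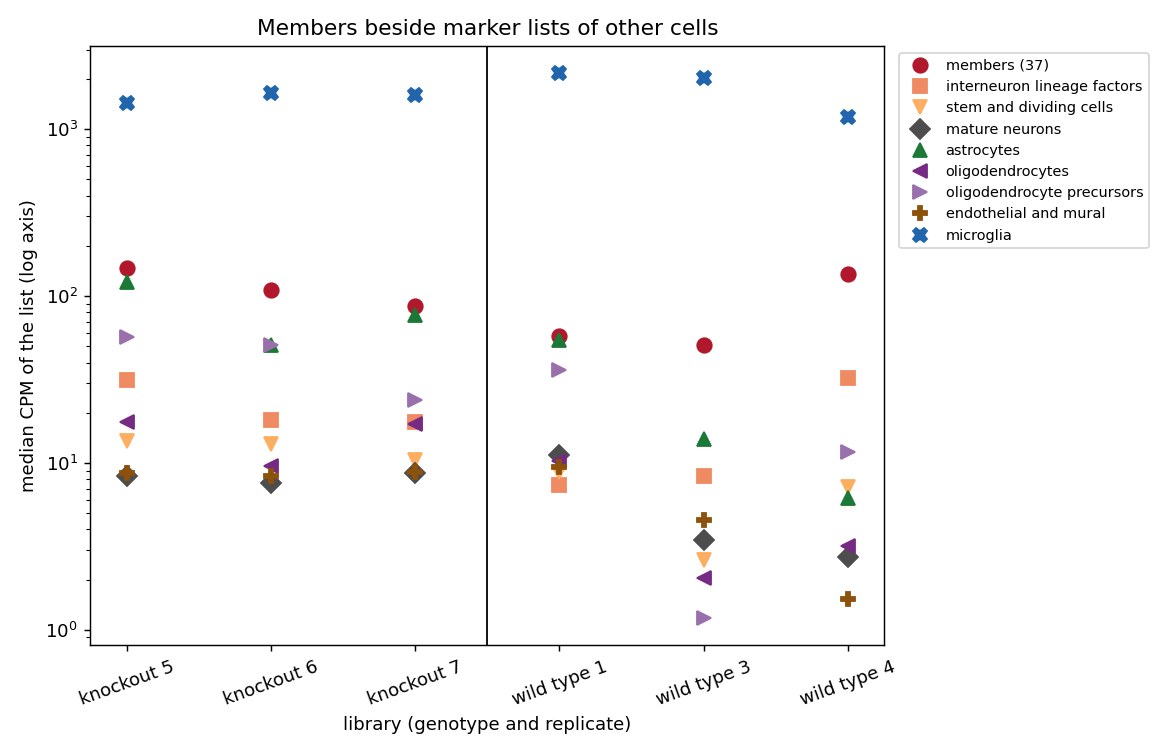
Median CPM of the 37 members, of interneuron lineage factors and of marker lists of other cells in each library, on a log axis, with libraries labelled knockout to the left of the line. Members and interneuron lineage factors are high in wild type library 4, where astrocyte and endothelial markers are at their lowest.

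Wild type library 4, high in the members, was the lowest of the 6 libraries in astrocyte markers. The median of 16 astrocyte markers was 121.5, 51.1 and 76.7 CPM in knockout libraries 5, 6 and 7 and 54.4, 13.96 and 6.16 CPM in wild type libraries 1, 3 and 4. The median of the 37 members was 147, 109 and 87.8 CPM in knockout libraries 5, 6 and 7 and 57.3, 50.9 and 137 CPM in the wild type libraries. Summed over the list, the 16 oligodendrocyte markers had 2504, 2080 and 2544 CPM in knockout libraries 5, 6 and 7 and 2489, 560 and 182.8 CPM in wild type libraries 1, 3 and 4. In wild type library 4, 0 of the astrocyte, oligodendrocyte, microglial and endothelial and mural markers exceeded both other wild type libraries, against 35 of 37 members. Of 12 markers of oligodendrocyte precursors, Vcan alone had the common order of the members. The 18 microglial markers had a median between 1446 and 1653 CPM in libraries labelled knockout and between 1177 and 2168 CPM in wild type libraries, the lowest being wild type library 4. The part of these other cells in the levels of the members was not tested.

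Of 15 markers of mature neurons, Map2 alone had the common order, at 411, 341 and 239 CPM in knockout libraries 5, 6 and 7 and 167, 110 and 385 CPM in wild type libraries 1, 3 and 4. It codes for a microtubule-associated protein also present in young neurons. Rbfox3 had 4.85, 3.71 and 4.78 CPM in knockout libraries 5, 6 and 7 and 5.88, 1.54 and 3.48 CPM in wild type libraries 1, 3 and 4. Slc17a7, Camk2a and Grin2a, genes of mature excitatory neurons, were at 2.57, 3.14 and 0.285 CPM in wild type library 4, the lowest of the 6 libraries for each. The list was divided in this. Snap25, Syn1 and Grin1 were lowest in wild type library 3, at 13.8, 3.99 and 3.26 CPM. In wild type library 4 these had 20.4, 7.59 and 5.59 CPM.

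Of 10 listed markers of GABAergic neurons, 4 had the common order: Gad1 and Gad2 for GABA synthesis, the transporter gene Slc32a1 and the factor Lhx6. The order of Lhx6 rests on few reads, at 0.139 to 1.60 CPM over the 6 libraries. Gad2 had 121, 82.0 and 59.8 CPM in knockout libraries 5, 6 and 7 and 29.0, 29.5 and 107 CPM in wild type libraries 1, 3 and 4. Gad1, at 144, 97.5 and 71.5 CPM in knockout libraries 5, 6 and 7 and 42.0, 45.5 and 169 CPM in wild type libraries 1, 3 and 4, had the same order. Markers of mature cortical interneuron classes were low, Pvalb at 0 to 0.195 CPM and Sst at 0.0571 to 0.843 CPM over the 6 libraries.

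Of the 64 partner genes listed beside the members (relatives, ligands and lineage factors), 61 were tested and edgeR called 0, with 3 at an unadjusted p under 0.05, beside 7.25% of all tested genes. DESeq2 and limma-voom also called 0, with 6 and 4 at that level, beside 9.17% and 8.62% of all tested genes, counts near those backgrounds. The log2 fold change was positive for 47 of the 61, with a median of 0.38. Among the interneuron lineage factors, Dlx1, Dlx2, Dlx5, Dlx6, Sp8 and Sp9 had the common order of libraries, and Gsx2 did not. Dlx1 and Sp8 were chosen after their values were seen. Dlx1 had 182, 126 and 95.2 CPM in knockout libraries 5, 6 and 7 and 47.2, 53.9 and 177 CPM in wild type libraries 1, 3 and 4. Sp8, needed for olfactory bulb interneurons, had 102, 83.2 and 54.6 CPM in knockout libraries 5, 6 and 7 and 32.5, 32.9 and 102 CPM in wild type libraries 1, 3 and 4.

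Of 37 close relatives of members, 15 had this order, and of 19 ligands and co-factors of migration 7 did, beside the 14% of all tested genes. The partners with the smallest p-values were Etv4, a relative of Etv1, Vldlr, a receptor for reelin, Dab1, its adaptor, and Map1s, a relative of Map1b. Vldlr had 36.5, 23.6 and 24.2 CPM in knockout libraries 5, 6 and 7 and 17.9, 5.07 and 13.4 CPM in wild type libraries 1, 3 and 4, so that its groups did not overlap (log2 fold change 1.20 ± 0.42, adjusted p = 0.637 in edgeR). Dab1 and Etv4 did not overlap either, with log2 fold changes of 0.89 ± 0.34 for Dab1 and 1.75 ± 0.56 for Etv4, and Map1s had -0.47 ± 0.21 (adjusted p = 0.637 for each, edgeR). Map1a, another relative of Map1b, was called as higher by edgeR without wild type library 1 (log2 fold change 1.71, adjusted p = 0.0282; 0.642 over all 6 libraries). In that setting 1.77% of tested genes were called as higher and 0.0866% as lower, and 0 members. This gene was named after its value was seen.

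The listed genes of stem and dividing progenitor cells were divided over this order. Mki67, a proliferation marker, had 94.8, 75.7 and 63.2 CPM in knockout libraries 5, 6 and 7 and 13.1, 15.2 and 98.1 CPM in wild type libraries 1, 3 and 4. Top2a, Pax6, Eomes and Neurod1 had this order too, while Egfr, Nes, Hes5, Neurog2 and Prom1 did not. Hes5, a Notch target, had 13.5, 4.61 and 7.37 CPM in knockout libraries 5, 6 and 7 and 2.92, 2.45 and 0.799 CPM in wild type libraries 1, 3 and 4, the lowest being wild type library 4. Eomes, a factor of intermediate progenitors, lay between 2.66 and 5.67 CPM in knockout libraries 5, 6 and 7, and at 0.174, 0.997 and 7.13 CPM in wild type libraries 1, 3 and 4.

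Within the members, knockout library 5 and wild type library 4 held the highest level of all members but St8sia4. Median exon length differed between the members highest in each. The 17 members highest in knockout library 5 had a median exon length of 3908 bases and the 19 highest in wild type library 4 one of 8583 bases. The ratio of knockout library 5 to wild type library 4 had a median of 1.52 in the 5 members with exons of 1000 to 2000 bases (Tuba1a, Tubb3, Stmn1, Marcksl1 and Gap43) and 0.830 in the 13 members of 8000 to 16000 bases, Dcx among them. Over all tested genes at 1 CPM or more in these length classes the median ratio was 1.14 and 0.908. The members did not all follow length. The 2 members of over 16000 bases had a median ratio of 0.989, beside 0.8085 over all tested genes of that class. Dclk1, at 15296 bases, had a ratio of 1.84 and was highest in knockout library 5. The part of exon length in the order of the members was not tested. With an offset for exon length in each library, chosen after seeing the data, edgeR called 0 members and their median log2 fold change was 0.43.

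**Figure D5:**
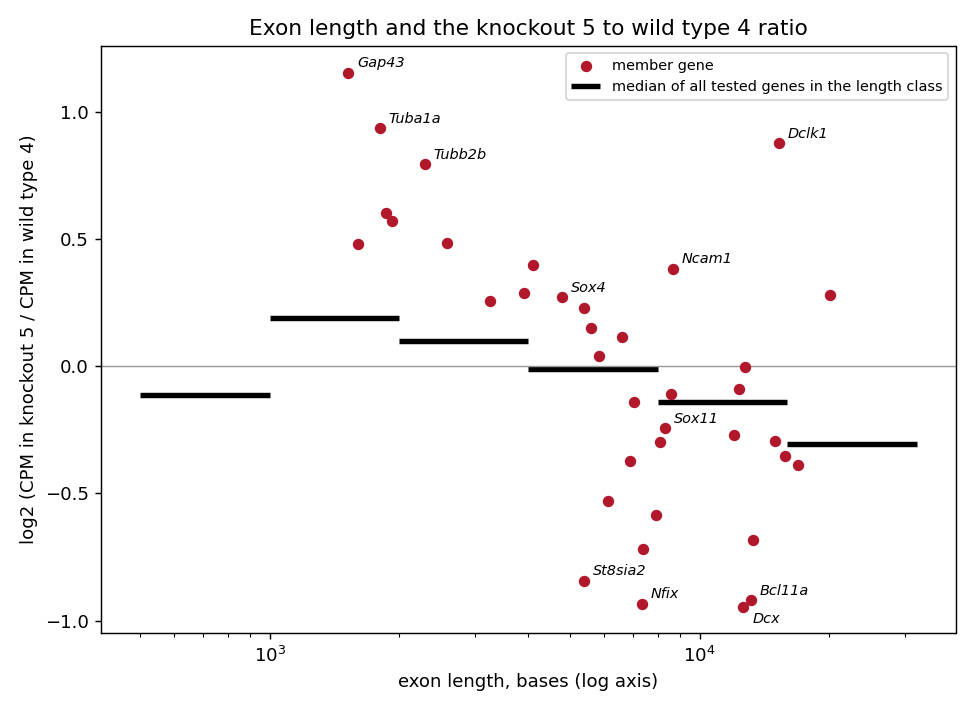
Log2 ratio of CPM in knockout library 5 over wild type library 4 for each member against its annotated exon length (log axis, points), with the median of all tested genes per length class (black bars). Short tubulin genes lie above 0 and the longer Dcx, Bcl11a and Nfix lie below, while the bars fall from 1000 bases upwards.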

How the data were processed

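RNA from 6 cortical libraries was sequenced after column isolation and a kit for stranded total RNA, per the labels' protocols. The authors deposited whole-number counts for every gene and library, with no scaling. The submitters' processing notes name Trim Galore 0.60, STAR 2.7, HTSeq 1.31 and the build mm10. The sources used here do not give the annotation release, the strand setting or how multi-mapping reads were handled. The 5 summary lines of each file stayed out of totals. Of 53379 identifiers, 53274 matched GENCODE M21 (GRCm38), which gave names, coordinates and the union of exons for RPKM.

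The main test was edgeR 4.0.16 (R 4.3.3) quasi-likelihood with TMM scaling, its default filter, robust shrinkage and Benjamini-Hochberg adjustment over 17221 genes, two-sided, at 0.05. It was tested on simulated data. CPM and RPKM were computed from the counts. Alternatives used DESeq2 1.42.0, limma 3.58.1, other scalings and filters, removal of ribosomal and small RNA genes, single libraries left out and an exon length offset. Pairs of libraries within a group differed by a chi-square of at least 49.9 per degree of freedom, so each counted as 1 sample. Counting limits cover counting error only.

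The members and lists were chosen with earlier results of these data known. Values per library are given for 10 fixed members, the 8 with the smallest p-values and other members, markers and partners chosen after seeing values; libraries are numbered by their replicate labels. The 4 partners with the smallest p-values are named. Some listed genes are not reported here.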

Additional observations from a re-analysis of the deposited data

How the results depend on the processing

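No member was called in any of the 16 alternatives. The median log2 fold change of the members stayed positive, between 0.36 and 0.60 under other tests, scalings, filters and the exon length offset, and between 0.13 (without wild type library 3) and 1.22 (without wild type library 4). With library totals alone the median over all genes was 0.11 in place of -0.03, and Dcx, St8sia2, Pbx3 and Etv1 changed the sign of their small log2 fold changes. The exon length offset was chosen after seeing the data. The count over all genes was 21 with DESeq2 and 5 without the filter on low counts, and ran from 1 to 321 when single libraries were left out, the highest without wild type library 1, with 6 without knockout library 7 and 3 without wild type library 4. Partner genes called ran from 0 to 1, Map1a without wild type library 1. No paired analysis was possible because the groups share no replicate number. With 3 libraries per group, intervals are wide, and that of Dcx spans changes of over 1 log2 unit in either direction.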
